A study of Mus musculus with 32 samples.

Results

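The coagulation and complement factors that the liver makes were followed across genotype, diet and feeding state in mouse liver RNA. The group consisted of 35 named genes, 19 of coagulation and fibrinolysis and 16 of complement, and they were matched by gene symbol to a table of 20076 genes. Of these, 34 were found, and Klkb1 was not analysed here. The filter on low counts kept 33 of the 34 among the 11566 genes tested, 18 of coagulation and 15 of complement.

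Hepatocytes release most plasma coagulation and complement proteins into blood as inactive precursors. In coagulation, a series of proteases ends in thrombin, which cuts fibrinogen into fibrin, while anticoagulants hold the proteases in check and plasmin dissolves the clot. In complement, the lectin, classical and alternative pathways meet at the cleavage of C3, and the terminal components C6, C8 and C9 take part in the membrane attack complex. The amount of several of these mRNAs is known to rise in the acute phase response, in which interleukin-6 acts on the hepatocyte. RNA says nothing of the amount or activity of the plasma proteins, which were not measured here.

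The livers came from male C57BL/6J mice, either littermate wild type (WT) or knocked out for Acadm, the gene of medium-chain acyl-CoA dehydrogenase (MCAD-KO). They were given a low-fat (LF) or a high-fat (HF) diet for 6 weeks and were then either fasted for 16 hours or left on the diet (fed). There were thus 8 groups of 4 mice: WT LF fed, WT LF fasted, WT HF fed, WT HF fasted, KO LF fed, KO LF fasted, KO HF fed and KO HF fasted. Age was labelled with no unit, from 7.5 to 16; among the mice used it ran from 9 to 12 in WT LF fed, 7.5 to 12 in WT LF fasted, 9 to 11 in WT HF fed, 8.5 to 13.5 in WT HF fasted, 10 to 16 in KO LF fed, 10 to 14 in KO LF fasted and 10 to 11.5 in both KO HF groups. Libraries of the 3′ ends of mRNA held between 2031053 and 4292200 counted reads. Acadm, the check of the genotype labels, had 26 to 94 reads in the 16 KO libraries and 566 to 2752 in the 16 WT libraries, so the genotypes did not overlap. Each library came from 1 mouse, and p-values measure the spread between these mice.

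A pair of libraries stood apart and were left out of the fits reported here. In KO HF fasted replicate 4, the summed level of 10 hepatocyte markers was 857 CPM (counts brought to a common library size, here over all 32 libraries), against 43069 or more in the other 30 libraries, and that of 12 heart markers was 36216 CPM. The coagulation members summed there to 372 CPM and the complement members to 339 CPM. In WT LF fed replicate 2, 22 of the 33 tested members were below their lowest level in the other 30 libraries, and the stellate cell and cholangiocyte markers summed to 1278 and 330 CPM. This left 30 libraries, with 3 mice in each of those 2 groups. Among the 30, acinar pancreas markers reached 17877 CPM in WT HF fasted replicate 2 and 2618 CPM in KO HF fed replicate 1. Elsewhere they were at 60.1 CPM or less. With WT HF fasted replicate 2 left out, the 11 members called for fasting below were all called again. The interaction of feeding and diet below was then called for only 2 members, beside 6 with that library kept.

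The first comparison asked how 16 hours without food changed these mRNAs, averaged over the 4 combinations of genotype and diet. In this tissue, fewer cells of a type and less RNA per cell cannot be told apart. Fasting changed 11 of the 33 members at an adjusted p below 0.05 in edgeR's quasi-likelihood test, 2 upwards and 9 downwards; over all genes, 18.9% passed, 9.77% upwards and 9.14% downwards. The changes were modest, from -0.59 to 0.49 on the log2 scale. In coagulation 6 of 18 members passed and in complement 5 of 15, which is 33.3% of each list. The direction was mixed in coagulation, with 2 higher and 4 lower, whereas all 5 complement members that passed were lower. The libraries had been sequenced on 2 lanes. Lane 8 held only 1 mouse each of KO HF fasted (replicate 3), KO LF fasted (replicate 4) and WT HF fed (replicate 4). A fit within that lane takes these mice to vary like the other groups, so no count of calls is given for it here. Within lane 7, where the mean was over 3 pairs of groups, 0 passed. The number called was 7 to 11 with 1 library left out, and 7 without WT HF fasted replicate 1 or WT LF fed replicate 1.

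**Figure D1:**
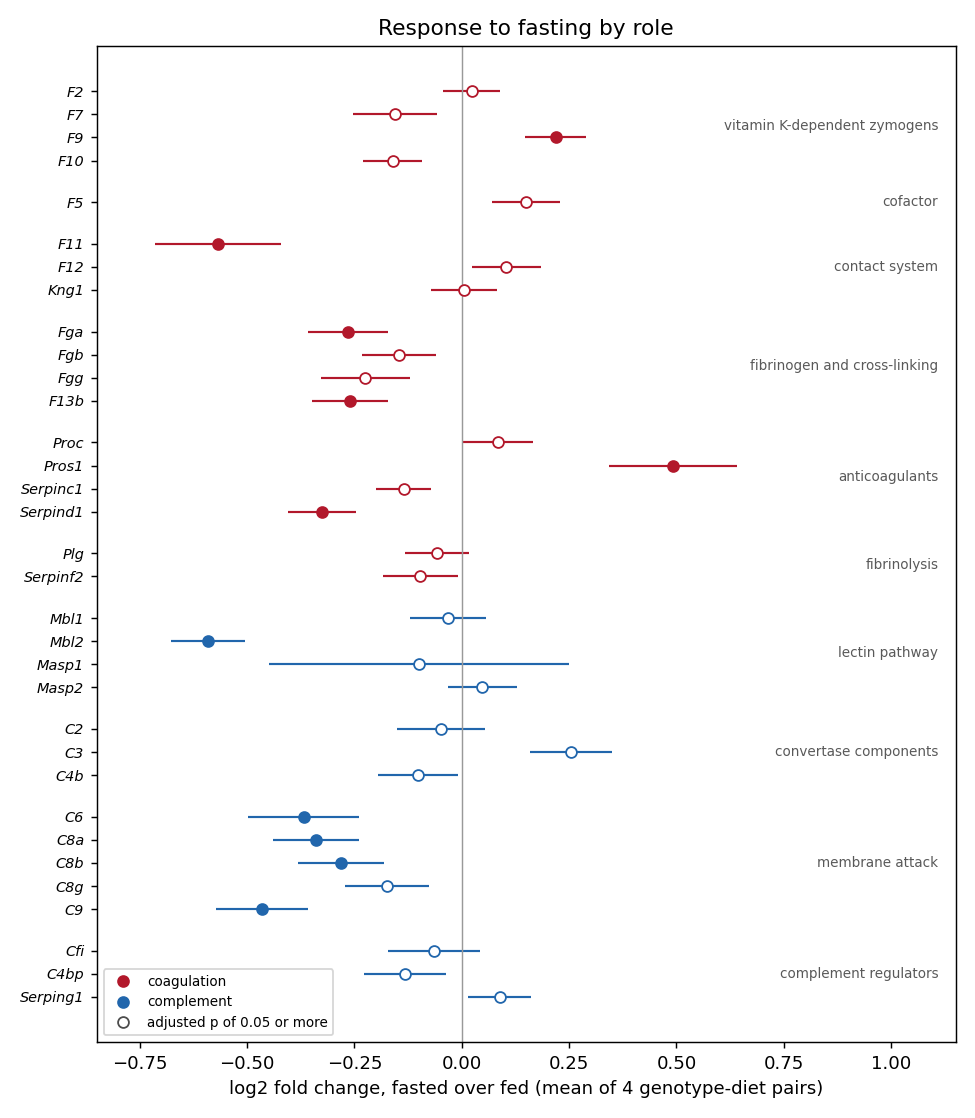
Log2 fold change of each of the 33 tested members, fasted over fed, averaged over the 4 genotype-diet pairs, with its SE (bars); members are ordered by role, red for coagulation and blue for complement, and filled where the adjusted p was below 0.05. All 5 membrane attack members and all 4 of the fibrinogen and cross-linking genes lie left of 0, while Pros1 and F9 are the filled points to the right.

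Among the vitamin K-dependent zymogens, F9 (factor IX, on the X chromosome at 59999464 to 60030759 of GRCm38) was at 168 CPM in the lowest, 209 in the median and 252 in the highest of 15 fed mice, and at 208, 241 and 275 CPM in 15 fasted mice. The ranges overlapped, and 14 of the 15 fasted mice were above the fed median. F9 rose by 0.22 ± 0.07 (log2 fold change ± SE; adjusted p = 0.024). In the same test, its call was lost with scaling to total counts (0.13, adjusted p = 0.20) and without a filter on low counts (adjusted p = 0.087). The other 3 zymogens did not pass: F2 (prothrombin) had a log2 fold change of 0.02, F7 of -0.16 and F10 of -0.16. F5, the cofactor of factor X, was at 0.15 (adjusted p = 0.20).

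In the contact system, which starts the intrinsic pathway, F11 (factor XI; chromosome 8, 45241174 to 45262031) fell by 0.57 ± 0.15 on the log2 scale (adjusted p = 0.0043). Its level was 25.0, 41.3 and 54.0 CPM (lowest, median, highest) in fed mice and 6.18, 28.9 and 49.0 CPM in fasted mice, with 6 fasted mice below every fed one. F12 (factor XII) and Kng1 (kininogen) had log2 fold changes of 0.10 and 0.00 and did not pass. Kng1 has a close paralog, Kng2, so the split of reads between them is uncertain.

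Fibrinogen is built from the chains encoded by Fga, Fgb and Fgg, which lie together on chromosome 3, and F13b encodes the carrier subunit of the enzyme that cross-links fibrin. Fga fell by 0.26 ± 0.09 (adjusted p = 0.041) and F13b by 0.26 ± 0.09 (adjusted p = 0.034). For Fgb and Fgg the log2 fold changes were -0.15 and -0.22, with adjusted p of 0.27 and 0.13. Fga was between 2379 and 3992 CPM in fed mice and between 2009 and 5915 CPM in fasted mice, so the highest fasted mouse was above all fed mice although 12 of 15 fasted mice were below the fed median. That mouse was KO HF fasted replicate 3; without it, Fga, Fgb and Fgg all passed as lower in the fasted mice, and Fga was at -0.37 (adjusted p = 0.00065). The call for Fga was lost with any 1 of 19 of the 30 libraries left out, down to -0.20 (adjusted p = 0.12) without KO HF fasted replicate 2. F13b lost its call without any 1 of 7 libraries, at most to an adjusted p of 0.078 without KO HF fasted replicate 3.

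The anticoagulants moved in opposite directions. Serpind1 (heparin cofactor II) was between 325 and 438 CPM in fed mice and between 207 and 369 CPM in fasted mice, all 15 of which were below the fed median. It fell by 0.33 ± 0.08 (adjusted p = 0.0021). Pros1 (protein S, the cofactor of protein C) rose by 0.49 ± 0.15 (adjusted p = 0.018), from a median of 71.7 CPM to one of 99.2 CPM, with 10 fasted mice above every fed mouse and 1, WT LF fasted replicate 3 at 34.9 CPM, below all of them. Proc (protein C) and Serpinc1 (antithrombin) had log2 fold changes of 0.08 and -0.13 and did not pass. Neither did the fibrinolysis genes, Plg (plasminogen, -0.06) and Serpinf2 (its inhibitor alpha-2-antiplasmin, -0.10).

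Complement had its clearest change in the lectin pathway. Mbl2, a mannose-binding lectin that recognises microbial sugars (chromosome 19, 30232942 to 30239687), had 746, 829 and 1127 CPM (lowest, median, highest) in fed mice and 287, 579 and 941 CPM in fasted mice. Of the fasted mice, 11 were below every fed mouse. Mbl2 fell by 0.59 ± 0.09 (adjusted p = 1.5e-06), the smallest p of the 33 members. Its relative Mbl1 was at -0.03 (adjusted p = 0.86), and Masp2, a protease bound by these lectins, at 0.05. Masp1, the other protease, had between 0 and 19 reads per library, an SE of 0.35 and a log2 fold change of -0.10, so only a large change could have been detected at this depth.

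At the convertases, C3 had a log2 fold change of 0.25 ± 0.10 and narrowly missed the threshold (adjusted p = 0.057). It was at 1407 to 2239 CPM in fed and 1511 to 3294 CPM in fasted mice. C2 and C4b were at -0.05 and -0.10, neither of which passed. C4b has a near-identical copy, C4a, and its count is uncertain for that reason. Cfb (factor B) was left out by the filter with 0 to 3 reads per library. On chromosome 17, 79.5% of its exon bases are shared with an annotated transcript on the same strand, Gm20547, which also takes in C2, and union counting leaves out reads that fall on more than 1 gene, so its level cannot be read from these counts. C2 shares 42.8% of its exon bases with the same transcript. That overlap does not reach the 3′ end of C2, where reads of these libraries come from, whereas it does reach that of Cfb. Genes on the other strand overlap 54.9% of the exon bases of Masp2, 34.4% of Serpinc1 and 11.3% of Plg, and reads of such partners may not have been told apart.

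Of the 5 membrane attack genes, 4 fell and none rose, where 9.14% of all genes fell and 9.77% rose. C9, which forms the pore, was at 402, 654 and 893 CPM (lowest, median, highest) in fed mice and at 307, 527 and 803 CPM in fasted mice. It fell by 0.47 ± 0.11 (adjusted p = 0.0011), with 14 of 15 fasted mice below the fed median. C8a fell by 0.34 ± 0.10 (adjusted p = 0.013), C6 by 0.37 ± 0.13 (adjusted p = 0.042) and C8b by 0.28 ± 0.10 (adjusted p = 0.041). C8a and C8b encode chains of C8 and are neighbours on chromosome 4, 11130 bases apart. C8g, the small chain of C8, was at -0.17 (adjusted p = 0.24). C6 and C8b each lost the call without any 1 of 17 libraries, C6 to an adjusted p of 0.094 without KO HF fasted replicate 3 and C8b to 0.0995 without WT HF fed replicate 2. In edgeR's test C6 also lost it without a filter on low counts (adjusted p = 0.078) and with age as a covariate (0.056). C8b lost it in limma voom (adjusted p = 0.054). With the replicate number as a block in edgeR's test, both just missed the threshold (adjusted p = 0.0504 and 0.0502). The regulators Cfi (factor I), C4bp (C4b-binding protein) and Serping1 (C1 inhibitor) had log2 fold changes of -0.06, -0.13 and 0.09 and did not pass.

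As lists, coagulation and complement differed little in the average response to fasting. The median log2 fold change was -0.12 over the 18 coagulation members and -0.10 over the 15 complement members, beside 0.00 over all genes tested. The mean log2 level of a list in a mouse had a within-group SD of 0.09 for coagulation and 0.12 for complement. That is the spread between single mice and not the error of these medians. Fold changes were negative in 11 of the 18 coagulation members and in 12 of the 15 complement members.

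The lists did differ in how their summed level fell among the diet and feeding groups, which is given as a description. Coagulation members summed to 21944 to 24655 CPM in LF fed mice, above every LF fasted mouse (17187 to 21390 CPM) and every HF fed mouse (18224 to 21926 CPM). In HF fasted mice the range was 17244 to 33381 CPM. The fibrinogen chains made up most of this sum, with 12531 to 15046 CPM in LF fed mice. Complement members summed to 6591 to 8185 CPM in LF fed, 5281 to 7010 CPM in LF fasted, 6103 to 8137 CPM in HF fed and 6354 to 8744 CPM in HF fasted mice, and all of these ranges overlapped. When each member weighed equally, as the mean log2 level, LF fasted mice lay below LF fed mice without overlap in both lists, at 8.79 to 8.97 against 8.99 to 9.13 for coagulation and 7.62 to 7.87 against 7.96 to 8.25 for complement. The difference of the 2 means within a mouse was 0.87 to 1.16 in LF fed and 0.96 to 1.28 in LF fasted mice, which overlapped.

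Split by genotype and diet, the changes with fasting passed in the LF groups. In WT LF mice 4 of 33 members passed (Fga, Mbl2, C8a and C8b; 7.54% of all genes) and in KO LF mice 11 of 33 (F11, Fga, Fgb, Fgg, F13b, Serpind1, Serpinf2, Mbl2, C8a, C9 and C4bp; 13.8% of all genes), each of them downwards, beside 3.79% and 6.53% of all genes in that direction (3.75% and 7.26% passed upwards). In WT LF mice the call for Fga (-0.59) was lost without any 1 of 24 libraries, to an adjusted p of 0.18 without WT LF fasted replicate 1, and that for C8a (-0.80) to 0.051 without WT LF fed replicate 1, which left 2 members called. In KO LF mice F11 (-1.35), Mbl2 (-1.15), C9 (-0.95), C8a (-0.80), Fgg (-0.72) and Serpind1 (-0.58) kept the call whichever library was left out. The calls for Fgb, F13b, C4bp, Serpinf2 and Fga were lost without any 1 of 6, 4, 4, 3 and 1 libraries, at most to adjusted p of 0.085 (without KO LF fed replicate 4), 0.19 (KO LF fed replicate 2), 0.12 (KO LF fasted replicate 1), 0.070 (KO LF fasted replicate 1) and 0.056 (KO LF fasted replicate 2). Within lane 7, 1 member, Mbl2, was called in KO LF mice; lane 8 gave 5, from 1 fasted mouse against 2 fed ones. In WT HF mice and in KO HF mice 0 of 33 passed in edgeR's test, beside 0.424% and 0.527% of all genes. DESeq2 and limma voom also called 0 members in both. In WT HF mice the values ran from -0.37 ± 0.16 (Mbl2) to 0.48 ± 0.67 (Masp1, which had few reads). In KO HF mice they ran from -0.53 ± 0.21 (C8g) to 0.57 ± 0.31 (Pros1).

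**Figure D2:**
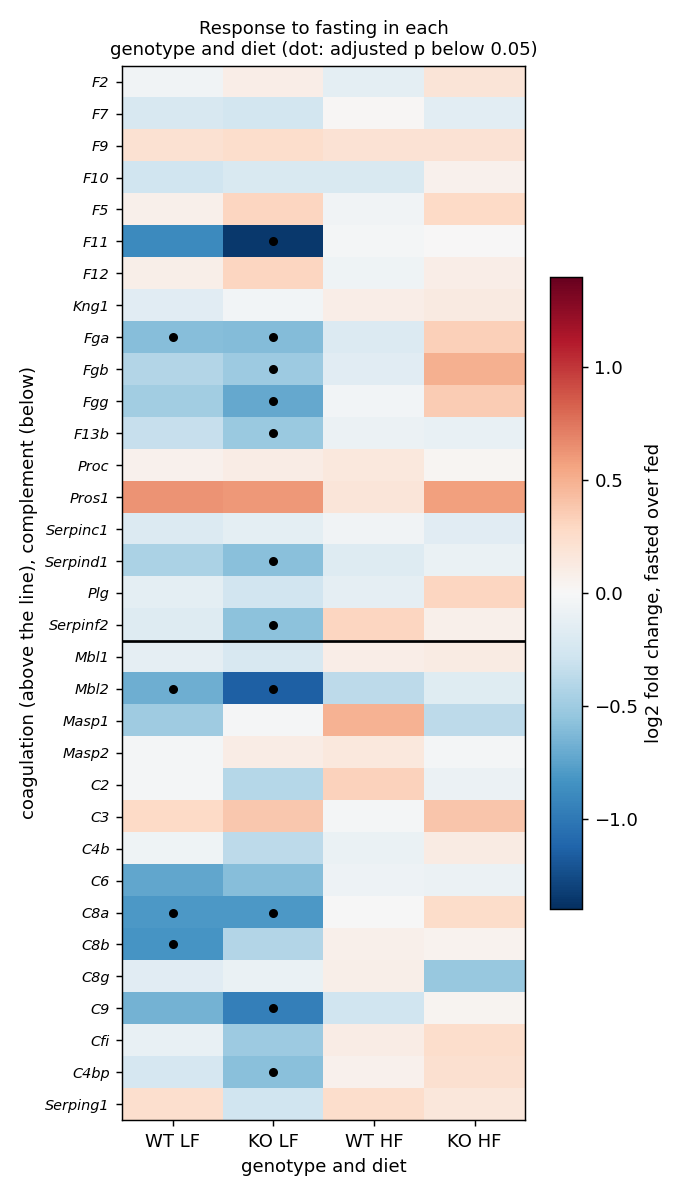
Log2 fold change, fasted over fed, of the 33 tested members (coagulation above the line, complement below) in each of the 4 genotype-diet pairs (columns), blue for lower and red for higher in fasted mice; a dot marks an adjusted p below 0.05. The dots lie in the WT LF and KO LF columns, 4 and 11 of them, and the HF columns hold none.

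Whether fasting acted differently on the 2 diets was tested by the interaction of feeding and diet over both genotypes. It was called for 6 of 33 members, 4 of coagulation and 2 of complement, beside 2.46% of all genes. All 6 had a positive interaction (1.26% of all genes did, and 1.2% had a negative one): the fasted over fed log2 difference was higher on HF than on LF. The interaction was 1.11 ± 0.29 for F11, 0.93 ± 0.20 for C8a, 0.76 ± 0.21 for Fgg, 0.68 ± 0.19 for Fga, 0.64 ± 0.17 for Mbl2 and 0.63 ± 0.17 for Fgb, with adjusted p of 0.030, 0.0072, 0.036, 0.039, 0.030 and 0.037. The medians over the lists were 0.19 for coagulation and 0.33 for complement, beside -0.01 over all genes. The interaction of fasting with genotype was called for 0 members and 0 of all genes in edgeR's test and 0 members had an unadjusted p below 0.05; DESeq2 and limma voom called 0 members as well.

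**Figure D3:**
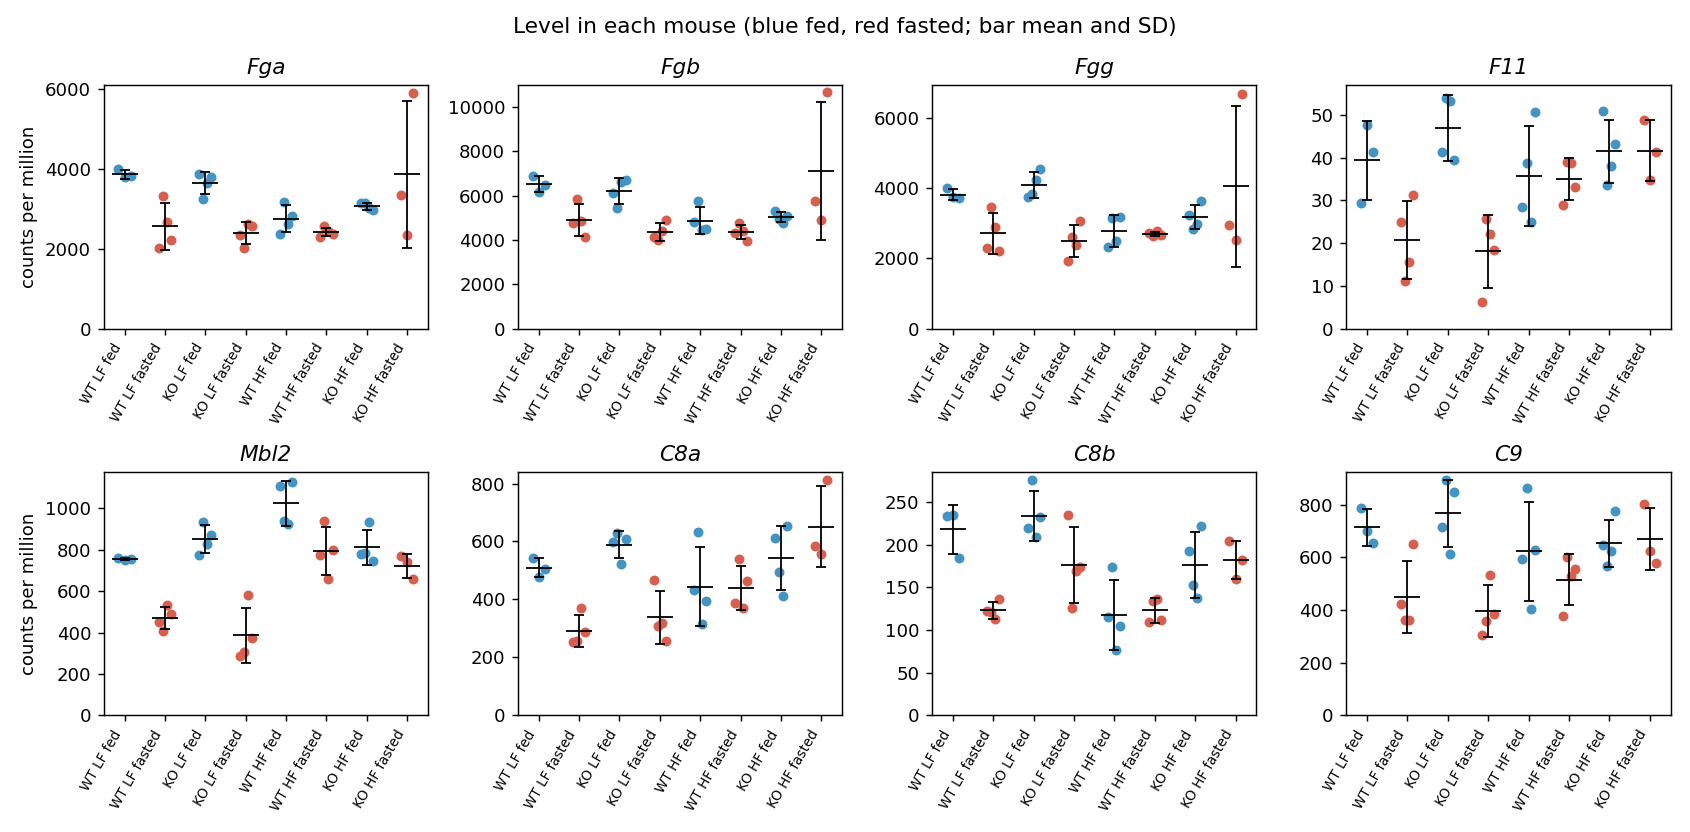
CPM of 8 members in each of the 30 mice by group (blue fed, red fasted), with the group mean and SD as bars and the axis starting at 0. In LF mice of both genotypes together the fasted points lie below the fed ones for Fgg, Mbl2 and C8a with no overlap, in HF mice of both genotypes together the fed and fasted points overlap in all 8 panels, and KO HF fasted replicate 3 is the high point for Fga, Fgb, Fgg and C8a.

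C8a had the smallest p for this interaction. In LF mice it was at 479 to 630 CPM in 7 fed mice and at 254 to 466 CPM in 8 fasted mice, with no overlap. In HF mice it was at 315 to 654 CPM in 8 fed and 371 to 812 CPM in 7 fasted mice, which overlapped. The call for C8a was kept with each of the 30 libraries left out in turn; without KO HF fasted replicate 3, the mouse with the highest C8a, it was 0.84 ± 0.20 (adjusted p = 0.019). Within lane 8 it was 1.24, but the only KO HF fasted mouse there was that replicate 3.

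F11 was at 29.3 to 54.0 CPM in LF fed and 6.18 to 31.4 CPM in LF fasted mice, and at 25.0 to 51.0 CPM in HF fed and 28.9 to 49.0 CPM in HF fasted mice. Only 1 LF fasted mouse reached into the LF fed range. Mbl2 was at 748 to 936 CPM in LF fed mice and at 287 to 579 CPM in LF fasted mice, with no overlap, and at 746 to 1127 and 657 to 941 CPM in HF fed and fasted mice. F11 and Mbl2 each lost the interaction call without any 1 of 8 libraries, F11 at most to an adjusted p of 0.076 (without WT LF fed replicate 3) and Mbl2 to 0.067 (without KO HF fasted replicate 1).

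The 3 fibrinogen chains moved together. Fgg was at 3731 to 4564 CPM in LF fed mice and 1938 to 3476 CPM in LF fasted mice, with no overlap. In HF mice it was at 2323 to 3635 CPM fed and 2536 to 6707 CPM fasted, and all 8 HF fed mice lay below every LF fed mouse. Fga behaved likewise in fed mice, with 3253 to 3992 CPM on LF and 2379 to 3181 CPM on HF, again without overlap. In edgeR's test of diet in fed mice neither passed, at -0.37 for Fga and -0.41 for Fgg (adjusted p = 0.28 and 0.27). The share of all genes without such overlap is not given. Without KO HF fasted replicate 3, the interactions were 0.46 for Fga, 0.42 for Fgb and 0.48 for Fgg, with adjusted p of 0.15, 0.14 and 0.15, so none of the 3 calls held. That mouse was not the only such library: the calls for Fga, Fgb and Fgg were lost without any 1 of 20, 14 and 12 libraries. The ratio of Fgb to Fga reads within a library was 1.57 to 2.37 over the 30 mice, and that of Fgg to Fga was 0.82 to 1.29.

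All 3 WT LF fed mice in the fits were sequenced on lane 8, and their lane and group could be told apart only through the other groups. With lane as a term in the fit, the interaction was called for C8a and Mbl2, while Fga, Fgb, Fgg and F11 had adjusted p of 0.092, 0.083, 0.10 and 0.052. Within lane 8, C8a, Fga, Fgb and Fgg were called, but KO HF fasted replicate 3, without which the fibrinogen calls were lost, was the only mouse of its group there, so these calls are no separate check. Lane 7 held no WT LF fed mouse, so no value could be had there. The number of members called ranged from 1 to 8 with 1 library left out; it was 1, each time C8a, without WT HF fed replicate 3, KO HF fed replicate 2, WT LF fed replicate 3 or WT LF fed replicate 4, and 2 without WT HF fed replicate 1, WT HF fasted replicate 2, WT LF fed replicate 1 or KO HF fed replicate 3. It was 3 without WT LF fasted replicate 1, KO LF fed replicate 3, KO LF fed replicate 4 or KO HF fasted replicate 3.

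Of the 6 members called in this interaction, 5 are shown with the 150 bases before their RefSeq start site (GRCm38.p6). Matches on either strand to 3 motifs of liver and acute phase factors are in capitals: TTGCNNAA for C/EBP, CTGGGAA for STAT3 and GTTAATNAT for HNF1. The set was chosen after the values were seen. Among all 32851 promoters of the same length, 5.46% held the first, 5.5% the second and 0.484% the third. The RefSeq start of Fga lay 77 bases inside the annotated gene, so its window is not printed.
Fgb (chr3:83049864-83050013, minus strand): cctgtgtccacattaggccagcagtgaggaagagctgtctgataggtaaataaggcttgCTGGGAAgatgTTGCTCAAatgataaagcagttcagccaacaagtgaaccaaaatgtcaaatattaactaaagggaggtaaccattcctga
Fgg (chr3:83007574-83007723, plus strand): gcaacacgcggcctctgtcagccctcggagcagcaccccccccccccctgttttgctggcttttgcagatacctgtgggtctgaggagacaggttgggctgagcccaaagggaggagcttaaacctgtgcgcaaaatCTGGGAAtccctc
F11 (chr8:45262032-45262181, minus strand): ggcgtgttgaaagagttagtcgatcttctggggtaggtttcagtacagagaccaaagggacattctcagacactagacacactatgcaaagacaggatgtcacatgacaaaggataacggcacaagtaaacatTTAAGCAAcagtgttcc
C8a (chr4:104876399-104876548, minus strand): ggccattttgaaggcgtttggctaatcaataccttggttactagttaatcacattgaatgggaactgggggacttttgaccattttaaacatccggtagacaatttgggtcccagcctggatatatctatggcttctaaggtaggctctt
Mbl2 (chr19:30232778-30232927, plus strand): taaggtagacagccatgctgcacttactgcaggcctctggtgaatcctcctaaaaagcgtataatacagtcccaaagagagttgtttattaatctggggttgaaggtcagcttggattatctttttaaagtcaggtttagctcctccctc
The Fgb window held CTGGGAA from base 91 to 85 before the start and TTGCTCAA from base 80 to 73, which do not overlap. Fgg held CTGGGAA at bases 13 to 7, and F11 held a C/EBP match on the minus strand at bases 17 to 10. No match to these letters was found in the C8a and Mbl2 windows. Of the 25 members in the table that had a promoter entry, 6 held a C/EBP match, 4 a STAT3 match and 3 an HNF1 match; the C/EBP and HNF1 counts include Fga, whose window lies partly inside the annotated gene. A match is a run of letters and not a measured site.

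The comparison of diets asked how HF mice differed from LF mice. Averaged over genotype and feeding, 2 of 33 members passed, 6.06% beside 3.49% of all genes. Mbl2 was higher on HF by 0.51 ± 0.09 (adjusted p = 0.00027) and F12, which starts the contact system, was lower by 0.33 ± 0.08 (adjusted p = 0.014). C4bp was at 0.32 (adjusted p = 0.054). With 1 library left out 2 to 5 members were called: 5 without KO LF fasted replicate 1, and 4 without KO LF fasted replicate 2, KO HF fasted replicate 1 or WT HF fed replicate 2. Within lane 7, with the mean over 3 pairs of groups, 0 were called.

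In fasted mice the diets differed in 7 of 33 members, 6 higher and 1 lower on HF, beside 6.65% of all genes, 3.75% and 2.9% in those directions. The higher ones were F11 (0.96 ± 0.21), Mbl2 (0.83 ± 0.12), C8a (0.77 ± 0.14), C4bp (0.59 ± 0.14), C9 (0.48 ± 0.15) and Serpinf2 (0.39 ± 0.12). Mbl2 was at 657 to 941 CPM in HF fasted and 287 to 579 CPM in LF fasted mice, and C4bp at 358 to 674 and 145 to 343 CPM, neither with any overlap. F12 was lower in HF fasted mice, at 242 to 370 CPM against 315 to 590 CPM, by 0.41 ± 0.11 (adjusted p = 0.020). C9 and Serpinf2 were close to the threshold (adjusted p = 0.046 and 0.048) and lost the call without any 1 of 22 and 20 libraries, C9 to 0.16 without KO HF fasted replicate 1 and Serpinf2 to 0.18 without KO HF fasted replicate 3; F12 lost it without KO HF fasted replicate 3 (0.076), which left 4 members called. Within lane 7, 1 member was called.

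In fed mice the diets differed in 1 of 33 members, beside 0.268% of all genes. C8b was at 185 to 276 CPM in LF fed mice and at 76.3 to 222 CPM in HF fed mice, and was lower on HF by 0.65 ± 0.14 (adjusted p = 0.022). This call was lost without any 1 of 7 libraries, at most to an adjusted p of 0.11 without WT LF fed replicate 3, and 2 members were called without WT HF fed replicate 2. Within lane 8, which held 1 WT HF fed mouse, C8b was at -0.68. Its neighbour C8a was at 479 to 630 CPM in LF fed and 315 to 654 CPM in HF fed mice. As a description, the ratio of C8a to C8b reads within a library was 2.04 to 2.74 in LF fed mice and 2.95 to 4.13 in HF fed mice, and so did not overlap between diets; in fasted mice it was 1.47 to 3.29 on LF and 2.72 to 4.45 on HF. These are ratios of 3′ reads and not of molecules per length.

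The last comparison asked whether loss of MCAD altered the factors. Averaged over diet and feeding, 0 of 33 members were called in edgeR's test, beside 0.00865% of all genes, which was Acadm alone. DESeq2 and limma voom also called 0 members, and 2 members, C8a and C8b, had an unadjusted p below 0.05 (2.9% of all genes did). Within each condition, 0 members were called. In LF mice this stood beside 0.0193% of all genes when fed and 0.0104% when fasted, and in HF mice beside 0.00998% and 0.0096%. At an unadjusted p below 0.05 there were 2 members in LF fed mice (5.61% of all genes), 1 in LF fasted mice (2.28%), 2 in HF fed mice (3.92%) and 5 in HF fasted mice (3.69%), and DESeq2 and limma voom called 0 members in each condition.

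**Figure D4:**
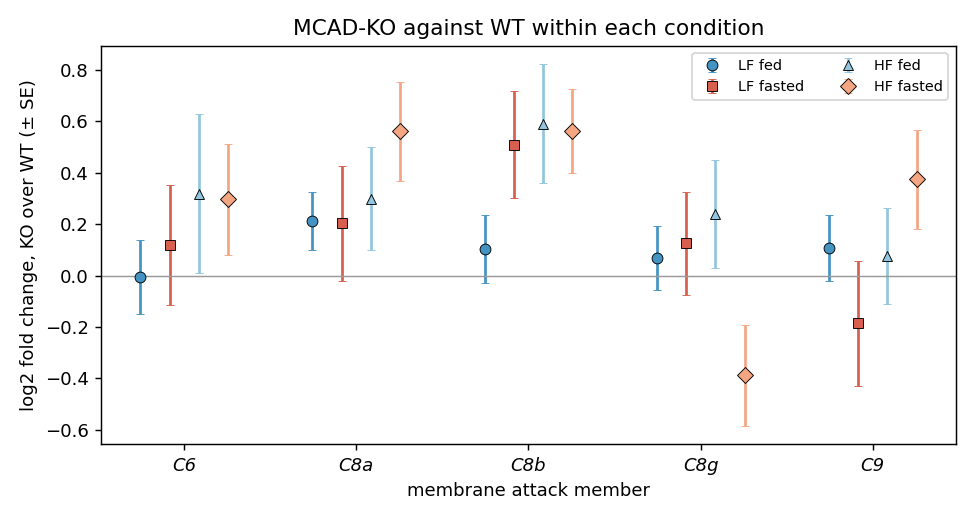
Log2 fold change, KO over WT, with SE (bars) of the 5 membrane attack members in each of the 4 conditions (symbols), each fitted on the mice of that condition alone. C8b lies between 0.10 and 0.59 and C8a between 0.20 and 0.56 in the 4 conditions, with no adjusted p below 0.05.

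Chosen after the values were seen, C8b and C8a stood nearest to a genotype difference. C8b was at 0.44 ± 0.10 on average (unadjusted p = 7.5e-05, adjusted p = 0.43) and had the second smallest p of all genes. Without WT HF fed replicate 2 it was 0.50 and was called (adjusted p = 0.019). Within lane 8 it was 0.46, and within lane 7, as the mean over 3 pairs of groups, 0.54. C8a was at 0.32 ± 0.10 (unadjusted p = 0.0030). By condition, C8b was at 0.10 in LF fed, 0.51 in LF fasted, 0.59 in HF fed and 0.56 in HF fasted mice. In WT HF fasted mice C8b was at 109, 134, 136 and 112 CPM and in KO HF fasted mice at 204, 160 and 182 CPM, which did not overlap. In LF fed mice, WT were at 234, 235 and 185 CPM and KO at 220, 276, 209 and 232 CPM.

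KO HF fasted replicate 3 stood apart from all other mice in fibrinogen. Its summed Fga, Fgb and Fgg level was 23276 CPM, against 15046 CPM or less in the other 29 mice. The summed level of a list of 16 acute phase genes was 15145 CPM in it and 5231 to 8975 CPM elsewhere. Neutrophil markers were at 22.5 CPM against 19.4 CPM or less. This is a small gap on a list with 6 genes in the table, 3 of them with a median of 0 reads. With this mouse, KO over WT in HF fasted mice was 0.67 ± 0.25 for Fga, 0.70 ± 0.23 for Fgb and 0.58 ± 0.28 for Fgg. Without it, the values were 0.23, 0.29 and 0.02. C8b was at 0.56 with and without this mouse, and C8a was at 0.56 with and 0.37 without it. The values of the fibrinogen chains and of Pros1 in HF fasted mice are named here after they were seen: Pros1 was at 0.44 with and 0.42 without this mouse.

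**Figure D5:**
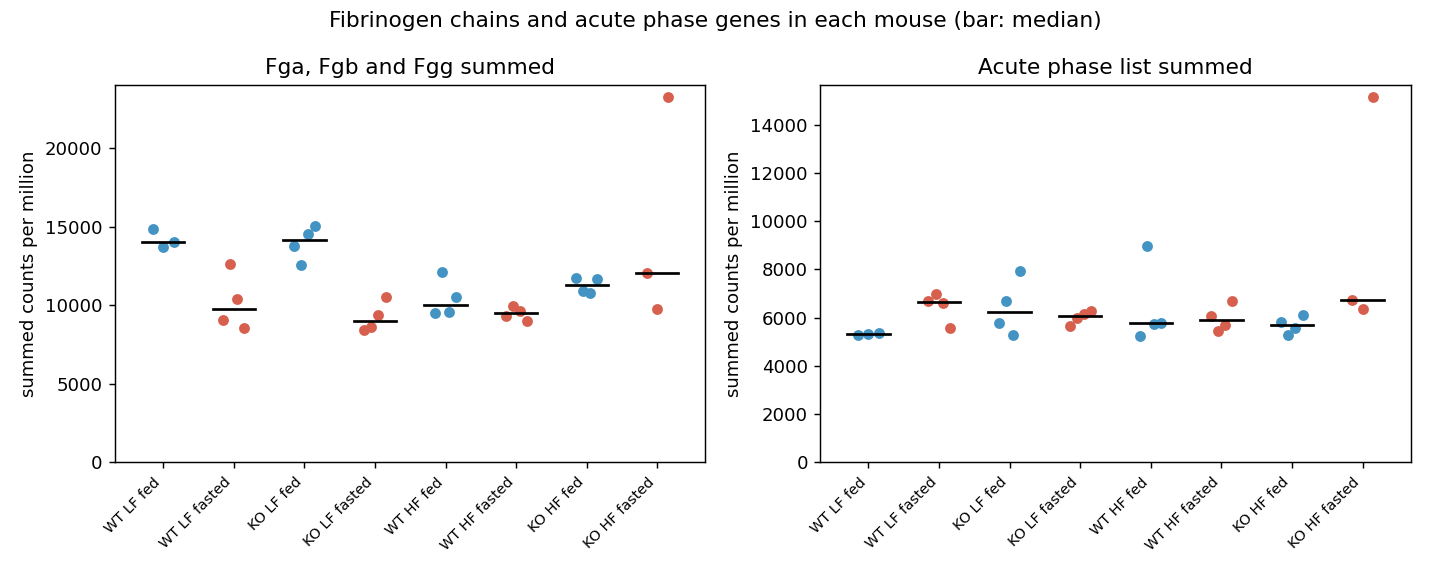
Summed CPM of Fga, Fgb and Fgg (left) and of the acute phase list (right) in each of the 30 mice by group, with blue for fed and red for fasted mice and the group median as a bar; axes start at 0. The KO HF fasted mouse of replicate 3 lies at 23276 and 15145 CPM, above every other mouse in both panels.

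Other genes of the pathways were also read under fasting; over all genes, 9.77% rose and 9.14% fell. Of 16 tested genes of a further coagulation and fibrinolysis list, 5 fell. Among them, Cpb2, which protects fibrin from lysis, fell by 0.35 (adjusted p = 0.00074), Serpina10, the protein Z-dependent protease inhibitor, by 0.43 (adjusted p = 0.0023) and Proz (protein Z) by 0.30 (adjusted p = 0.015). Of 21 tested genes of a further complement list, 0 rose and 2 fell, C4a by 0.62 and C1ra by 0.26. The share that fell was near the share that fell over all genes. C4a is the near-identical copy of C4b, so its count is uncertain as well. Genes for the vitamin K cycle and factor secretion included 0 of 9 that rose and 3 that fell: Ggcx, the carboxylase that modifies the vitamin K-dependent factors, by 0.49 (adjusted p = 0.00045), Lman1, a transport receptor for factors V and VIII, by 0.45, and Asph by 0.39.

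Among 16 liver transcription factors, 6 rose and 4 fell, where 18.9% of all genes passed in either direction. Cebpd rose by 1.37 ± 0.25 (adjusted p = 0.00014) and Ppara by 0.63, while Foxa2 fell by 0.91 ± 0.11 (adjusted p = 4.2e-08) and Onecut1 by 1.84 ± 0.39. Il6ra, the receptor subunit for interleukin-6, rose by 1.19 ± 0.14 (adjusted p = 4.4e-08), the only one of 10 genes of its list to pass. Of 14 tested acute phase genes, Hp (haptoglobin), Itih3 and Fgl1 rose, by 0.87, 0.49 and 0.82, and 0 fell. With 1 of 10 and 3 of 14 called, the interleukin-6 and acute phase lists were near the share over all genes.

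Marker lists of other cells were also read in the 30 libraries, beside the same 18.9% of all genes called. Macrophage markers summed to 319 to 456 CPM in fed and 221 to 635 CPM in fasted mice, and 1 of 8, Adgre1, fell with fasting. Stellate cell markers summed to 452 to 700 and 435 to 611 CPM, and 2 of 8 fell. The 10 hepatocyte markers summed to 43001 to 62311 CPM in fed and 42738 to 61282 CPM in fasted mice, with 3 higher and 2 lower in fasted mice. The part of these lists in the members' changes was not tested.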

How the data were processed

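Counts of reads per gene were deposited by the authors for 32 libraries labelled as liver, made with a 3′ mRNA kit (Lexogen QuantSeq). Per the labels and the study's methods, single reads were aligned to GRCm38 with HISAT 0.1.5, handled with SAMtools 1.2 and counted in union mode with HTSeq 0.6.1p1. Raw counts were used as deposited. Reads of a 3′ library come from the ends of transcripts, so levels were not compared between genes. Gene symbols came from GENCODE vM21, which may differ from the annotation used for counting; 163 identifiers, with 0.125% of counts, had no symbol.

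The members and the other gene lists were chosen with earlier results of these data known. After filterByExpr and TMM scaling, an 8-group model over 30 libraries was fitted with edgeR 4.0.16 (robust quasi-likelihood; R 4.3.3), and contrasts were taken for fasting, diet, genotype and their interactions. KO was set against WT within each condition on the mice of that condition alone. P-values were two-sided and adjusted by Benjamini-Hochberg over all genes tested, with a threshold of 0.05. SEs were the fold change divided by the square root of F. CPM used the TMM library sizes. At the depths of these libraries, 3 counts, the limit that a count of 0 allows, came to 0.699 to 1.48 CPM, for counting error only.

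Given in full, by smallest p, were up to 6 members of each list called for fasting and up to 4 called for diet. So was every member called in an interaction or genotype comparison. Of each other list, up to 3 genes in each direction called for fasting were given. Others are named as chosen after their values were seen. A result on a further gene of the other lists is not reported here. Same-numbered replicates of different groups had residual correlations of -0.207 to 0.163 (median 0.00685, 98 pairs), so the numbers did not pair the mice. No 2 libraries of a group agreed within sampling noise. The scripts were tested on simulated data. Alternatives were other scalings and filters, DESeq2 1.42.0, limma 3.58.1, lane, age, replicate number and leaving out libraries; those within lane 7, and those without WT HF fasted replicate 2 or KO HF fasted replicate 3 as libraries in doubt, were added after the data were seen.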

Additional observations from a re-analysis of the deposited data

Results flagged for a closer look

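Within groups of 4 mice, 6 of 204 combinations of member and group had a mouse far from the other 3, where chance alone sets apart about 1 in 20. In WT HF fasted replicate 1 these were C3 at 2188.7 CPM, C6 at 73.773 CPM, F13b at 144.24 CPM and Serpinc1 at 1730.9 CPM. F9 was set apart at 252.19 CPM in WT HF fed replicate 2, and Kng1 at 643.71 CPM in KO HF fed replicate 4.

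The response to fasting differed between diets, by the test of the interaction itself, for F11 (1.11), C8a (0.93), Fgg (0.76), Fga (0.68), Mbl2 (0.64) and Fgb (0.63), all as log2 differences, HF minus LF. Only C8a kept the call whichever of the 30 libraries was left out. The calls for Fga, Fgb, Fgg, F11 and Mbl2 were lost without any 1 of 20, 14, 12, 8 and 8 libraries. With lane as a term, only C8a and Mbl2 were called.

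Marker lists were raised in the libraries outside the comparisons. KO HF fasted replicate 4 had heart markers at 36216 CPM and stellate cell markers at 4235.9 CPM, and WT LF fed replicate 2 had stellate cell markers at 1278.2 CPM, against at most 70.8 CPM for heart and 706 CPM for stellate cell markers in the other 30 libraries.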

How the results depend on the processing

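With all 32 libraries, and likewise with KO HF fasted replicate 4 added alone, 0 members were called for fasting on average, diet on average, fasting in WT LF, fasting in KO LF, diet in fed mice, diet in fasted mice and fasting by diet; the median over coagulation members was -0.22 with that library. With WT LF fed replicate 2 added alone, these counts were 6 for fasting, 1 for diet, 1 for fasting in WT LF, 0 for diet in fed mice and 1 for fasting by diet. Scaling to total counts called 14 members for fasting, 1 higher and 13 lower beside 2 and 9, with a coagulation median of -0.20 and a median over all genes of -0.09; it called 4 members for diet, 8 in WT LF, 19 in KO LF and 11 for diet in fasted mice. DESeq2 called 4 for diet, 7 in WT LF and 2 for diet in fed mice. Within lane 8 there were 5 for fasting, 7 in WT LF, 5 in KO LF, 3 in KO HF and 0 for diet in fed mice; KO LF fasted and KO HF fasted had 1 mouse each there, the latter replicate 3, and each lone mouse is assumed to vary like the other groups. Within lane 7 there were 0 for fasting, 0 for diet, 1 in KO LF and 1 for diet in fasted mice. With lane as a term 2 were called for fasting by diet. Without a filter on low counts 2 members, Fga and Fgb, were called between genotypes in HF fasted mice. Shares over all genes are not given for these alternatives, so the counts are not read as results about the members.

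With 1 library left out, the counts were 7 to 11 for fasting, 2 to 5 for diet, 0 to 1 for genotype, 2 to 6 in WT LF, 8 to 12 in KO LF, 0 to 2 for diet in fed mice, 4 to 8 for diet in fasted mice and 1 to 8 for fasting by diet, and 0 throughout for fasting in WT HF, fasting in KO HF, fasting by genotype and KO against WT in each condition. The list medians were -0.13 to -0.08 for coagulation and -0.21 to -0.07 for complement. C8b, KO against WT in LF fed mice, was 0.10 and ranged from -0.0030 to 0.16 with 1 library left out, the reversal to -0.0030 coming without WT LF fed replicate 4. With the replicate number as a block, 9 members were called for fasting and 4 for fasting by diet, and the numbers do not pair the mice. Of 2069 values of single members under alternatives, 1674 kept their direction and side of the threshold, 391 lost the call, 3 gained it and 1 reversed; the cause was not tested.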
